A study of Oryza sativa with 6 samples.

Results

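Root RNA of the rice variety Varadan was compared with root RNA of the variety Prasanna over both nitrogen supplies of the study, using all 6 of its arrays, 3 of each variety. Varadan and Prasanna (Oryza sativa) are both IIRR releases from India, and the study set them side by side for their contrasting response to low nitrogen. Seedlings labelled as 14 days old were grown in hydroponics: after germination they stood in Yoshida nutrient solution with nitrogen and were then moved to the same solution without nitrogen or with supplemented nitrogen. The durations given are 7 days of germination and 10 days in Yoshida solution, which together exceed the labelled age. For each variety, 1 array came from roots without nitrogen and 2 from roots with supplemented nitrogen. By these labels the average difference between the varieties is balanced over the supplies. However, 1 Varadan array with nitrogen held genes of nitrogen starvation near the levels without nitrogen, as given below. Each value is the log2 signal of a probe set, a group of short probes on an Affymetrix rice array that reads a transcript or several similar ones. Many genes have several probe sets. The labels do not say whether arrays of a group stand for separate cultures. The p-values therefore reflect only how these samples scatter, and that scatter may be technical. Where 3 values of a variety are listed, the first is its array without nitrogen, followed by replicates 1 and 2 with nitrogen.

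Cultivated rice varieties carry different alleles of many genes, and some genes are present in one variety and absent from another. In roots such differences reach the uptake machinery: transporters for nitrate, ammonium and iron sit in root membranes, and their partner proteins, hormone pathways and defence proteins set how a root grows and what it takes up. An array read with fixed probes measures RNA level and the match of the RNA to the probes together, so a variety whose sequence differs under a probe can give a low signal with no change of RNA level. For that reason the probe sets of the same locus are described side by side wherever there is more than 1.

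The correlation over the tested probe sets was 0.866 to 0.909 among Varadan arrays, 0.885 to 0.925 among Prasanna arrays and 0.827 to 0.892 between the varieties. The array of Varadan with nitrogen, replicate 1, held genes of nitrogen starvation near the levels of the arrays without nitrogen. Ammonium transporter OsAMT1.2 read 10.83 log2 in Varadan without nitrogen and 10.78 and 4.41 log2 in Varadan with nitrogen, against 9.54 log2 in Prasanna without nitrogen and 4.1 and 6.40 log2 in Prasanna with nitrogen. The columns of that array and of Varadan without nitrogen are exchanged between the study's deposited tables, which leaves the average difference of the varieties as it is and changes only its error. As a check of the labelled tissue, the root silicon transporter Lsi1 read 14.98 to 15.21 log2 in Varadan and 14.52 to 14.75 log2 in Prasanna. Of the control transcripts, the 3′ and 5′ probe sets of GAPDH lay 4.38 to 4.77 log2 apart in Varadan and 3.06 to 3.52 log2 apart in Prasanna. Its 3′ probe set read 14.44 to 15.26 log2 in Varadan and 14.74 to 15.05 log2 in Prasanna, whereas the 5′ probe set read 10.03 to 10.49 log2 in Varadan and 11.25 to 11.99 log2 in Prasanna. The 3′ to 5′ gaps of actin and cyclophilin overlapped between the varieties; the part of RNA quality in the results was not tested.

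The 2 varieties differed strongly at a small share of probe sets. Of 34316 tested probe sets, 601 (1.75%) differed at an adjusted p under 0.05 and are here said to be called. Of these, 326 (0.95%) were higher in Varadan and 275 (0.801%) were lower. The median size of a called difference was 3.08 log2, or 8.48-fold, and 245 of the 601 (40.8%) were larger than 4 log2, which is 16-fold. The largest differences were 10.62 log2 higher and 11.69 log2 lower in Varadan. Over all tested probe sets the median difference was -0.0067 log2, with quartiles at -0.32 and 0.31, so the bulk of the transcriptome lay close to 0. At an unadjusted p under 0.05 stood 3679 probe sets, 10.7% of those tested. The 3 Varadan and the 3 Prasanna values did not overlap for 590 of the 601 called probe sets, against 4618 (13.5%) of all tested.

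**Figure D1:**
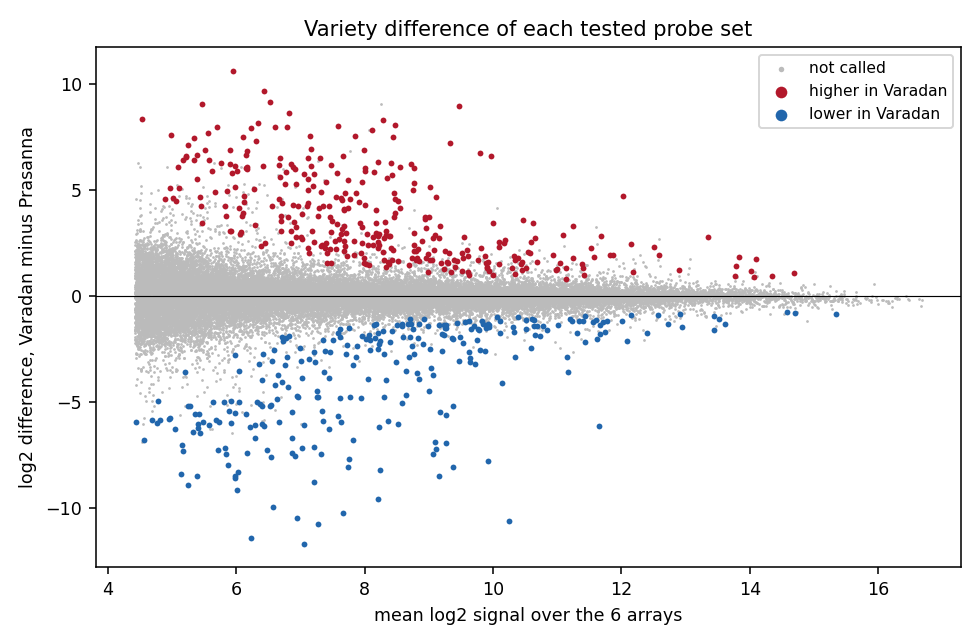
Each point is 1 tested probe set: the x axis is its mean log2 signal over the 6 arrays and the y axis the log2 difference, Varadan minus Prasanna. Called probe sets higher in Varadan (326, red) and lower in Varadan (275, blue) reach beyond 10 log2 at low and middle levels, while uncalled probe sets (grey) narrow towards 0 as the signal rises.

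Calls were commonest at middle levels. With the tested probe sets split by mean signal into 4 groups of equal size, lowest to highest, 0.734%, 2.53%, 2.49% and 1.25% of the tested probe sets were called. Among the called probe sets, 114 (19.0%) read as present in one variety and at background in the other, taking a reading below the 40th percentile of its array (4.89 to 5.42 log2) as not above background. Of these 114, 54 were above that level in all 3 Varadan arrays and below it in all 3 Prasanna arrays, and 60 the other way round. Over all 34316 tested probe sets, 227 read the first way and 218 the second. Testing required a mean over the 6 arrays at or above the 40th percentile of such means, so these probe sets passed through the variety with the high readings. For such probe sets a fold is given below as a bound, with the low readings raised to the percentile. Probe sets of genes with a name in the reference gene table were called less often than those of genes without one, at 1.28% of 3210 against 2.01% of 24233; this difference in share was not tested. Of the 601, 169 (28.1%) stayed called whichever array was left out. A fit with 1 array fewer can lose calls for that reason alone, and the part of any single array was not tested. Without the array of Varadan with nitrogen, replicate 1, 553 of the 601 were still called, and the total was 820 (392 higher, 428 lower).

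Among genes of iron transport, 1 of 18 tested was higher and 1 was lower in Varadan, against 1.85% of all tested loci called when each is read by its brightest probe set. Rice roots take up ferrous iron through IRT transporters and ferric iron bound to mugineic acids through the strategy of grasses, and YSL proteins move metal bound to nicotianamine or mugineic acids. OsIRT2, a ferrous iron transporter of the ZIP family, read 12.48 log2 in Varadan without nitrogen and 11.65 and 10.64 log2 in Varadan with nitrogen, against 5.69 log2 in Prasanna without nitrogen and 4.70 and 6.18 log2 in Prasanna with nitrogen. The groups did not overlap, and the lowest Varadan reading stood more than 4 log2 above the highest Prasanna reading. OsIRT2 was 6.07 ± 0.48 log2 higher in Varadan (SE, adjusted p = 0.0022), and stayed called with each array left out, at differences of 5.70 to 6.59 log2. OsYSL2, which carries iron and manganese bound to nicotianamine in the phloem, went the other way. It read 6.87 log2 in Varadan without nitrogen and 3.83 and 6.70 log2 in Varadan with nitrogen, against 11.57 log2 in Prasanna without nitrogen and 13.02 and 13.58 log2 in Prasanna with nitrogen. OsYSL2 was 6.92 ± 0.90 log2 lower in Varadan (a difference of -6.92, adjusted p = 0.014). Its call was lost without Prasanna with nitrogen, replicate 1 (-6.77 log2, adjusted p = 0.10), and without Prasanna with nitrogen, replicate 2 (-6.45 log2, adjusted p = 0.088). Each of these genes has 1 tested probe set, so no second reading of the locus is at hand.

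The other 16 tested members of the list for iron acquisition and metal transport were not called, and the list median was -0.07 log2. OsIRT1, the main ferrous iron transporter, differed by 0.52 log2 at levels of 14.69 to 15.63 log2 in Varadan and 14.34 to 14.91 log2 in Prasanna. Nicotianamine synthase OsNAS1 differed by -0.52 log2, OsYSL15, the ferric mugineic acid transporter, by -0.54 log2, and OsNRAMP5, the manganese and cadmium uptake transporter, by 0.61 log2. None of these values passed the test, and each is below 1 log2 in size.

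OsNAR2.2, a partner protein that NRT2 nitrate transporters need at the membrane, was the one called gene among 13 tested for nitrate uptake and transport. It read 9.41 log2 in Varadan without nitrogen and 7.94 and 7.66 log2 in Varadan with nitrogen, against 6.5 log2 in Prasanna without nitrogen and 2.82 and 2.36 log2 in Prasanna with nitrogen. By the log2 table used here, the array without nitrogen was the highest in each variety. By the other deposited table, 9.41 log2 belongs to Varadan with nitrogen, replicate 1, and 7.94 log2 to Varadan without nitrogen. The groups of the varieties did not overlap. OsNAR2.2 was 4.44 ± 0.58 log2 higher in Varadan (adjusted p = 0.015), and 2.84 log2 higher when the 2 low Prasanna readings were raised to the 40th percentile. The call was lost without Prasanna with nitrogen, replicate 1 (4.36 log2, adjusted p = 0.073) or replicate 2 (4.09 log2, adjusted p = 0.058), without Varadan with nitrogen, replicate 2 (4.30 log2, adjusted p = 0.075), and with the other deposited table (adjusted p = 0.13). The close relative OsNAR2.1 read 10.75 to 12.51 log2 in Varadan and 9.68 to 12.61 log2 in Prasanna, with a difference of 0.62 log2 that did not pass. High-affinity transporters OsNRT2.1, OsNRT2.2 and OsNRT2.3 had differences of -0.25, 1.16 and 2.46 log2, none of them called. OsNRT2.3 read 12.49, 12.29 and 7.78 log2 in Varadan and 11.31, 6.82 and 7.06 log2 in Prasanna, and without Varadan with nitrogen, replicate 1, its difference was 0.99 log2.

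No other nitrogen list had a called member: 0 of 8 for ammonium and urea transport, 0 of 15 for nitrogen assimilation and 0 of 12 for nitrogen-responsive regulators. The ammonium transporter OsAMT3.3 had the largest difference there, 2.86 log2, with 9.45, 9.29 and 6.86 log2 in Varadan and 7.84, 5.07 and 4.1 log2 in Prasanna, which overlap. The median of the ammonium and urea list was 0.53 log2, and 0.09 log2 without Varadan with nitrogen, replicate 1. The plastid glutamine synthetase OsGS2 read 10.99, 10.22 and 10.51 log2 in Varadan and 9.02, 9.43 and 9.60 log2 in Prasanna, without overlap, at a difference of 1.22 log2 (adjusted p = 0.10). Nitrite reductase OsNiR and asparagine synthetase OsAS1 differed by -0.34 and -1.61 log2, and neither passed the test.

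Lists for stress and defence gave 3 further calls, all higher in Varadan: 1 of 10 tested genes for low oxygen and fermentation, 1 of 14 for pathogenesis-related proteins and 1 of 7 for abscisic acid and dehydration. None was called among 16 genes of diterpenoid phytoalexins or 7 of jasmonate, and the share over all loci was 1.85%. OsADH1, the alcohol dehydrogenase of fermentation, read 10.04, 10.02 and 10.19 log2 in Varadan and 8.82, 8.59 and 8.80 log2 in Prasanna, a difference of 1.34 ± 0.19 log2 (adjusted p = 0.019). Its other probe set, dimmer, differed by 0.25 log2. The names of both probe sets mark sequence that other transcripts may share. Without such probe sets, 0 of 8 tested genes of the low oxygen list were called. OsPR1b, a pathogenesis-related protein secreted under attack, read 10.27, 8.96 and 7.59 log2 in Varadan and 7.08, 6.16 and 5.55 log2 in Prasanna, a difference of 2.68 ± 0.43 log2 (adjusted p = 0.034). RAB16D, a dehydrin made under dehydration and abscisic acid, read 12.48, 10.20 and 9.37 log2 in Varadan and 10.80, 6.75 and 7.94 log2 in Prasanna. Its groups overlapped across supplies, and the difference of 2.19 ± 0.39 log2 (adjusted p = 0.049) rests on taking the supply into account.

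Each of these 3 calls was lost in most of the fits with an array left out. OsADH1 and RAB16D kept their calls only without Varadan with nitrogen, replicate 1; with any other array left out their adjusted p was 0.070 to 0.13 and 0.095 to 0.19. OsPR1b lost its call without Varadan without nitrogen (adjusted p = 0.24), Prasanna without nitrogen (0.22), Prasanna with nitrogen, replicate 1 (0.094), and Prasanna with nitrogen, replicate 2 (0.17). In the other deposited table the adjusted p was 0.055 for OsADH1, 0.21 for OsPR1b and 0.72 for RAB16D.

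**Figure D2:**
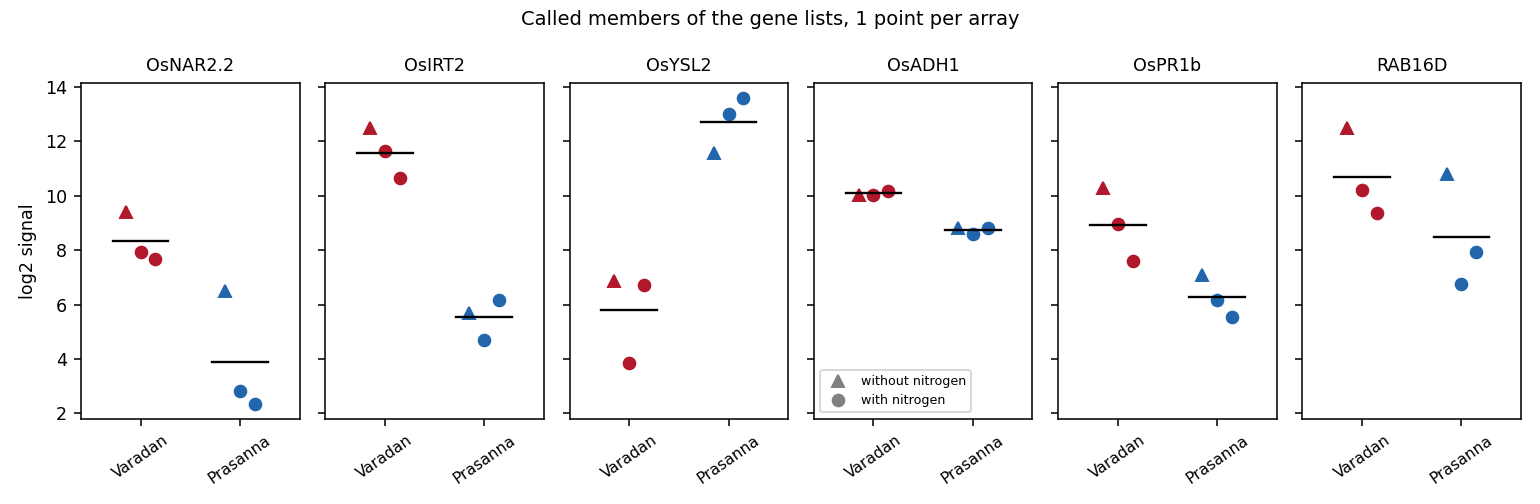
The y axis is log2 signal and each panel is 1 of the 6 called list genes, with Varadan (red) left of Prasanna (blue); triangles are arrays without nitrogen, circles arrays with nitrogen and bars the mean of 3 arrays. OsYSL2 is the one gene lower in Varadan, and RAB16D the one whose Varadan and Prasanna points overlap.

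In all, 247 genes of 24 lists were tested by the probe set with the highest mean of each locus, and 6 (2.43%) were called, 5 higher and 1 lower in Varadan. Over all 21680 tested loci read the same way, 401 (1.85%) were called, 226 (1.04%) higher and 175 (0.807%) lower. The share among the list genes was thus near the background, and the median difference over them was 0.03 log2. Genes known from breeding for traits that vary between rice varieties gave no call among 16 tested. The blast susceptibility gene Pi21 differed by 1.73 log2, with 11.75, 10.72 and 9.65 log2 in Varadan and 9.52, 9.10 and 8.32 log2 in Prasanna, which do not overlap (adjusted p = 0.087). The blast resistance gene Pi-ta differed by -0.95 log2 (adjusted p = 0.11). TAC1, a tiller angle gene, was below the 40th percentile in all 3 Varadan arrays and read 6.20 to 6.51 log2 in Prasanna (adjusted p = 0.27).

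Several lists leaned one way without a call for any member. All 14 photosynthesis genes had positive differences, with a median of 1.12 log2, 13 of them at an unadjusted p under 0.05, against 11.6% of all tested loci. None was called, although 2 were without Varadan with nitrogen, replicate 2. The small subunit of Rubisco OsRBCS2 read 14.50, 13.72 and 12.05 log2 in Varadan and 12.56, 11.81 and 10.77 log2 in Prasanna, a difference of 1.71 log2 (adjusted p = 0.18). A second probe set of OsRBCS3 was called at 1.54 log2 (adjusted p = 0.037), beside 1.45 log2 for its brightest one. The names of both mark sequence that other transcripts may share. That call stood in 2 of the 6 fits with an array left out and was lost with the other deposited table (adjusted p = 0.15). OsPsaD, a subunit of photosystem I, differed by 0.84 log2 with no overlap between varieties. The mean of the 14 genes was 12.59, 11.82 and 10.96 log2 in Varadan and 10.83, 10.78 and 10.36 log2 in Prasanna. All 14 stayed positive in each alternative fit that tested them, with medians of 0.68 to 1.36 log2 when an array was left out, lowest without either array without nitrogen. As photosynthesis genes mark green tissue and light, they moved with variety beside every other result; their part in those results was not tested. In these bulk samples more green cells and more RNA per cell cannot be told apart.

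The 7 tested heat shock genes were all positive as well, with a median of 0.72 log2. The small heat shock proteins OsHSP16.9A and OsHSP17.4 had differences of 1.29 and 1.35 log2, and none was called. All 9 genes of gibberellin synthesis and response were negative, with a median of -0.62 log2 and none called. Among them OsKAO, an early enzyme of gibberellin synthesis, differed by -1.31 log2 and SD1, the semi-dwarfing gibberellin oxidase, by -1.04 log2, with SD1 at 6.98, 7.37 and 8.26 log2 in Varadan and 8.36, 8.88 and 8.49 log2 in Prasanna. Of 9 cytokinin genes 8 were negative (median -0.45 log2), including the response regulators OsRR1 and OsRR4 at -0.77 and -0.61 log2, and none was called. The cytokinin count was 6 of 9 negative without Varadan with nitrogen, replicate 2 (median -0.20 log2), and without Prasanna with nitrogen, replicate 1 (median -0.48 log2). Of the heat shock genes, 6 of 7 were positive without Varadan with nitrogen, replicate 1 or 2, or Prasanna with nitrogen, replicate 2. Of the gibberellin genes, 8 of 9 were negative without Varadan with nitrogen, replicate 1, or either array without nitrogen. The marker lists of dividing root tips (11 genes) and vascular secondary walls (4 genes) had medians of 0.18 and -0.35 log2. The root tip list had 8 of 11 positive genes, but 3 of 11 and a median of -0.06 log2 without Prasanna with nitrogen, replicate 1. The wall list changed sign to a median of 0.17 log2 without Varadan with nitrogen, replicate 2, and 2 of its 4 genes were called lower without Varadan with nitrogen, replicate 1.

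**Figure D3:**
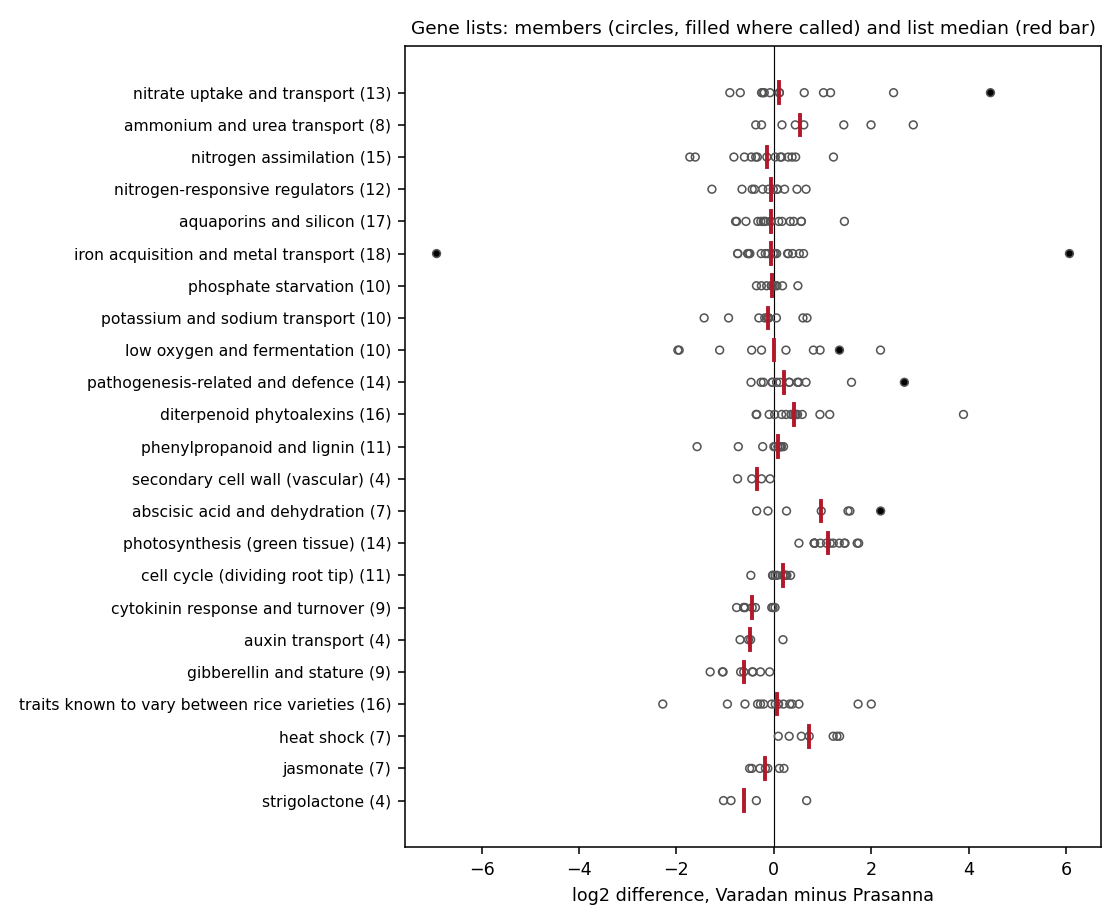
The x axis is the log2 difference, Varadan minus Prasanna, and each row a gene list of 4 or more tested genes, with their number; circles are genes, filled where called, and the red bar is the median of the list. Photosynthesis and heat shock genes lie to the right of 0 and gibberellin genes to the left, while the filled circles farthest from 0 are OsIRT2 and OsYSL2.

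Over list genes and others, 40 loci with a name in the reference gene table had a called probe set. OsWNK7, a kinase of the WNK family, was called by both of its probe sets and in every fit that left out an array. Its probe sets read 10.80, 10.31 and 10.80 log2 and 10.17, 10.77 and 11.45 log2 in Varadan, against 6.73, 5.80 and 6.86 log2 and 6.83, 6.79 and 7.61 log2 in Prasanna. The name of the first of these probe sets marks sequence that other transcripts may share. The differences were 4.17 ± 0.33 log2 (adjusted p = 0.0021) and 3.72 ± 0.32 log2 (adjusted p = 0.0028), with wide gaps between the varieties. SDH7, named as a succinate dehydrogenase subunit, read 10.05, 10.89 and 10.89 log2 in Varadan and 12.54, 12.50 and 12.84 log2 in Prasanna. It was lower in Varadan at a difference of -2.02 ± 0.20 log2 (adjusted p = 0.0051) and lost the call only without Prasanna with nitrogen, replicate 2 (adjusted p = 0.051). OsPMEI28, an inhibitor of pectin methylesterases in the cell wall, was lower in Varadan at -3.11 ± 0.38 log2 (adjusted p = 0.011). Its call was lost without either array of Prasanna with nitrogen or either array without nitrogen (adjusted p = 0.054 to 0.081). OsKS2, a kaurene synthase-like terpene enzyme, was at background in all 3 Varadan arrays and read 7.77, 8.24 and 7.55 log2 in Prasanna, at least 6.77-fold lower in Varadan (adjusted p = 0.035). Its adjusted p rose to 0.14 to 0.24 without any Prasanna array or the Varadan array without nitrogen.

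Glutaredoxins, small proteins that reduce disulfides with glutathione, were the one family of 24 grouped by name with more than 1 call: 2 of 19 (10.5%) by the brightest probe set, both lower in Varadan, against 1.85% of all tested loci called and 0.807% called lower. The family is named here because it had the most calls. GRXC15 differed by -2.72 log2 with 6.35, 7.02 and 8.84 log2 in Varadan and 8.47, 10.83 and 11.08 log2 in Prasanna, which overlap. GRXS4 differed by -1.76 log2 at one probe set, whereas its other probe sets differed by 0.75 and 0.22 log2. Both calls were lost without Prasanna with nitrogen, replicate 2 (adjusted p = 0.24 and 0.053), and without either array without nitrogen (0.17 to 0.18 and 0.058 to 0.066). The GRXC15 call was also lost without Prasanna with nitrogen, replicate 1 (0.21). No call stood among 58 protein phosphatases 2C, 31 expansins, 30 aquaporins or 49 auxin response and Aux/IAA factors read by their brightest probe sets. These families were formed after the values were seen.

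Many calls belonged to one probe set of a gene and not to its neighbours on the array. OsTIP2.1, a water channel of the vacuole membrane, had a probe set that read 1.45, 4.08 and 4.76 log2 in Varadan, all at background, against 13.64, 12.05 and 13.32 log2 in Prasanna. It was at least 241-fold lower in Varadan (adjusted p = 0.0027) and stayed called with each array left out. The brightest probe set of the same gene read 15.7 log2 on average in Varadan and 15.6 log2 in Prasanna, a difference of 0.17 log2, and the third differed by 1.76 log2 in the other direction. OsTPP7, a trehalose phosphate phosphatase known for seedling growth under water, showed the same layout. One probe set was at background in Varadan and read 8.14, 9.08 and 8.66 log2 in Prasanna, at least 11.6-fold lower in Varadan (adjusted p = 0.0073). The brightest probe set of OsTPP7 differed by -0.95 log2 and the third by 0.56 log2, neither of them called. The OsTPP7 call was lost without Prasanna with nitrogen, replicate 1 (adjusted p = 0.090) or replicate 2 (0.086).

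Among genes higher in Varadan, AldC-1, a fructose-bisphosphate aldolase of glycolysis, differed by 6.28 log2 at a dim probe set. With its low Prasanna readings raised to the percentile taken as background, that difference was 3.85 log2. Its call stood in 2 of the 6 fits with an array left out. The other probe sets of AldC-1 differed by -0.12 and -0.07 log2. The chitinase OsChia2a differed by 7.51 log2 at one probe set, and by 0.54 log2 at another. With a low Prasanna reading raised in the same way, the 7.51 log2 difference was 6.31 log2. That call of OsChia2a stood in 3 of the 6 fits with an array left out. The brightest probe set of OsChia2a averaged 9.92 log2 in Varadan and 12.55 log2 in Prasanna. This was a difference of -2.63 log2 the other way that was not called (adjusted p = 0.075). That opposite difference was called in the other deposited table (adjusted p = 0.0045) and without Varadan with nitrogen, replicate 1 (-1.98 log2, adjusted p = 0.013), while the 7.51 log2 difference was not called in the other table (adjusted p = 0.056). OsPP2C62, a protein phosphatase 2C, was at least 11.5-fold higher in Varadan at one probe set and differed by 0.57 log2 at the other. OsPRDA1 differed by 5.30 and -0.24 log2. With a low Prasanna reading raised, the first of these was 4.22 log2. Its call stood in 1 of the 6 fits with an array left out and was lost with the other deposited table (adjusted p = 0.051). OsTLP12, a tubby-like protein, differed by 2.80 and -0.14 log2, and CARA by 2.59 and -0.03 log2. Among genes lower in Varadan, OsPP2C64 differed by -1.97 log2 at the called probe set, whose name marks sequence that other transcripts may share. Its brighter probe set differed by -0.11 log2. OsMT-I-2b, a metallothionein that binds metals, differed by -1.52 log2 at a probe set averaging 7.0 log2 in Varadan and 8.52 log2 in Prasanna, while its 4 other probe sets, with means above 15 log2 in both varieties, differed by -0.24 to -0.004 log2. OsARF2, an auxin response factor, had all 3 probe sets on the same side, at -1.97, -0.85 and -0.79 log2, the first of them called. The name of that first probe set also marks sequence that other transcripts may share.

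Of 23 called probe sets taken from the lists and from the largest differences of named genes, 5 stayed called in all 6 fits with an array left out. They were those of OsIRT2, OsTIP2.1 and OsPP2C64 and both of OsWNK7. For OsTIP2.1 and OsPP2C64 the brightest probe set of the gene was not called. The 23 include OC-X, which was 4.57 log2 higher in Varadan, and leave out CARA, which was not among the largest and also stayed called in all 6. Without Varadan with nitrogen, replicate 1, 22 of the 23 were called, the exception being OsPRDA1 (adjusted p = 0.058). Without Varadan with nitrogen, replicate 2, 15 were called, and without each of the other 4 arrays 9 or 10 (adjusted p up to 0.24). Leaving out either array without nitrogen gave the same difference, that between the arrays with nitrogen. These 2 fits are therefore not separate checks.

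Of 473 loci with a called probe set (2.18% of those tested), 173 had 2 or more tested probe sets. In 31 of these all probe sets were called on the same side, and in 9 more at least 2 were called on the same side with none called on the other, 40 in all (23.1%). In 83 loci 1 probe set was called and the others lay on its side, and in 44 another probe set lay on the other side of 0. In 6 loci probe sets were called in both directions. The brightest probe set was not called in 72 of the 173 (41.6%), and in 42 (24.3%) it also lay within 0.5 log2 of 0. Probe sequences were not used here, so whether a base difference under the probes gave these readings was not tested.

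At the 6 loci called in both directions, probe sets of 1 locus stood far apart. At Os12g0552500 1 probe set read 13.55, 13.29 and 12.96 log2 in Varadan and 8.17, 5.62 and 6.24 log2 in Prasanna, 6.59 ± 0.40 log2 higher in Varadan. At the same locus 2 others read 4.86 to 6.61 log2 in Varadan and 13.22 to 14.00 log2 in Prasanna, with differences of -8.07 and -7.81 log2. The fourth probe set, whose name marks it as shared between transcripts, differed by only -0.73 log2. At Os05g0168400 1 probe set was at least 75.2-fold higher in Varadan, another differed by -5.45 log2, and the brightest, at 12.09 to 12.37 log2 in Varadan and 11.39 to 11.81 log2 in Prasanna, by 0.62 log2. Os03g0379500 (6.17 and -3.90 log2), Os12g0460800 (2.12 and -1.41 log2) and Os01g0140500 (0.88 and -1.33 log2) had the same opposition. At Os09g0129400 1 probe set was 4.08 log2 higher and another at least 6.86-fold lower in Varadan.

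**Figure D4:**
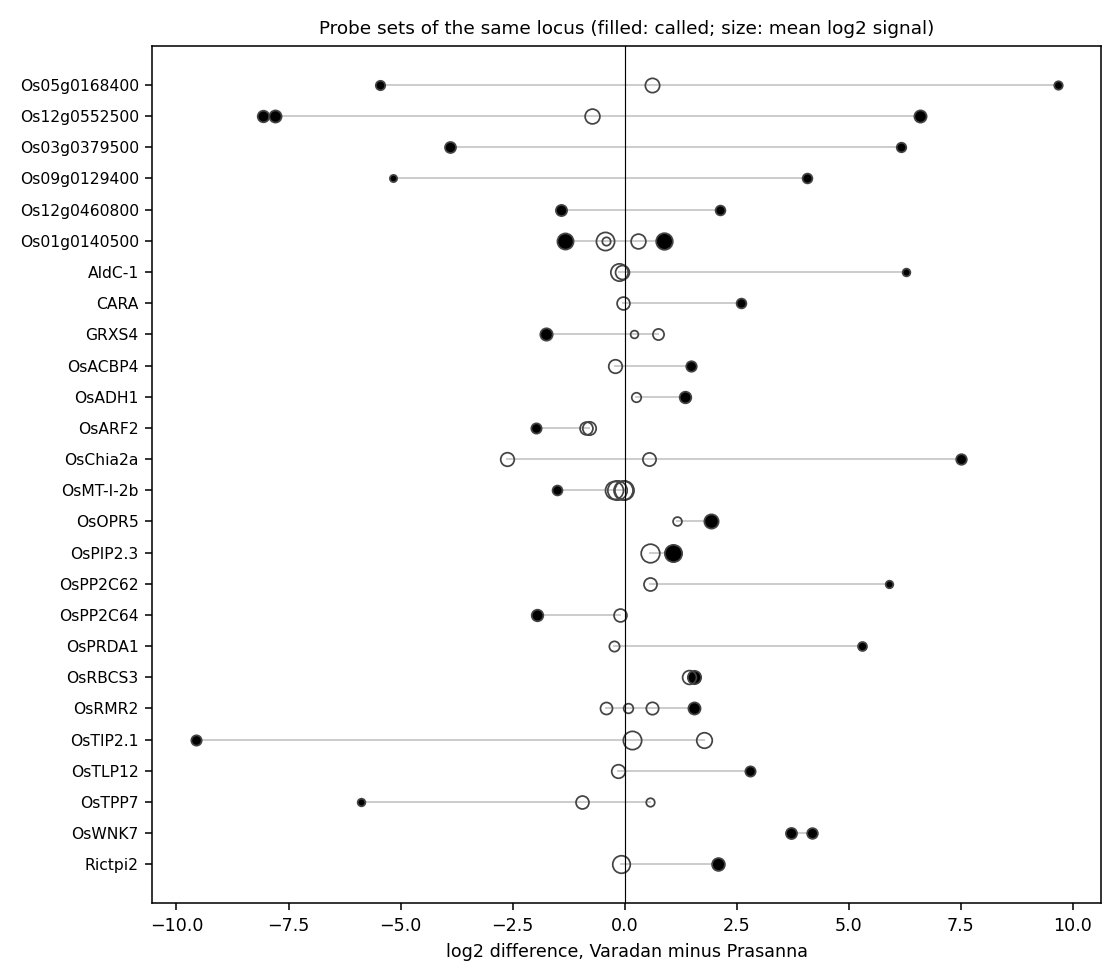
The x axis is the log2 difference, Varadan minus Prasanna, and each row 1 locus with 2 or more tested probe sets; each circle is a probe set, filled where called and larger where its mean log2 signal is higher. The 6 loci at the top hold filled circles on both sides of 0, OsWNK7 holds 2 filled circles close together, and in rows such as OsTIP2.1, AldC-1 and Rictpi2 the large circles lie near 0.

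At 39 loci probe sets moved together over a wide range of sizes. These loci had every tested probe set on the same side with at least 2 called and not overlapping, 20 higher and 19 lower in Varadan, and most of them have no name in the reference gene table. Ranked by the smallest of their called differences, they ran down to 1.68 log2 among the higher and 1.19 log2 among the lower loci, and those described next come from the top 12 in each direction. Os02g0216300, on chromosome 2, had 4 of 5 probe sets called. Its brightest read 6.22, 2.07 and 6.52 log2 in Varadan and 15.44, 15.70 and 15.51 log2 in Prasanna, close to the top of the array. That probe set was lower in Varadan at -10.62 ± 1.06 log2 (adjusted p = 0.0050), and another 2 were at least 190-fold and 138-fold lower. At Os01g0944200, on chromosome 1, 4 of 5 probe sets were called, and the brightest read 0.68, 0.33 and 2.61 log2 in Varadan and 12.18, 13.28 and 13.23 log2 in Prasanna, at least 223-fold lower in Varadan. At Os04g0423400 all 3 probe sets were called at -5.60, -7.21 and -6.06 log2 and stayed called with each array left out. At Os01g0537250 both were called, at -6.90 ± 0.26 and -3.57 ± 0.24 log2, with the second at 9.33 to 9.41 log2 in Varadan and 12.21 to 13.42 log2 in Prasanna.

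Higher in Varadan in the same way was Os07g0110600, on chromosome 7, with all 3 probe sets called. Its brightest read 10.90, 11.01 and 11.31 log2 in Varadan and 4.72, 5.38 and 5.60 log2 in Prasanna, a difference of 5.84 ± 0.25 log2 (adjusted p = 0.00028), and the others were at least 40.7-fold and 66.8-fold higher. Os07g0110800, close to it in locus order, was called by both of its probe sets at 2.89 ± 0.26 and 3.57 ± 0.24 log2. It was expressed in both varieties, at 11.78 to 13.06 log2 in Varadan and 8.02 to 10.64 log2 in Prasanna. Os05g0539800 (5.69 and 6.14 log2), Os04g0127200 (5.89 and 5.48 log2) and Os12g0470700 (7.84, 4.66 and 8.61 log2) had all their probe sets called. For the 12 highest-ranked loci in each direction, 17 of 26 called probe sets higher in Varadan and 13 of 30 lower in Varadan stayed called with each array left out. Of the 30 lower ones, 13 were called without either array of Prasanna with nitrogen, 30 without Varadan with nitrogen, replicate 1, 27 without Varadan with nitrogen, replicate 2, 23 without Varadan without nitrogen and 19 without Prasanna without nitrogen. Of the 26 higher ones 17 to 22 were called, fewest without Varadan with nitrogen, replicate 2.

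Called loci lay unevenly along the genome, as far as locus names give chromosome and order. The share of tested loci with a called probe set was 4.37% on chromosome 9, 4.28% on chromosome 11 and 3.70% on chromosome 12, against 0.868% on chromosome 3, 1.23% on chromosome 5 and 1.48% on chromosome 2. On chromosome 6, where 2.95% were called, 40 loci had a higher and 11 a lower probe set in Varadan. Of the 473 called loci, 89 (18.8%) had an adjacent tested locus that was called too, against 3.85% of the loci not called, and 39 of 49 adjacent called pairs lay on the same side. Probe sets of adjacent loci can share sequence where genes are tandem copies, and these shares were not tested.

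**Figure D5:**
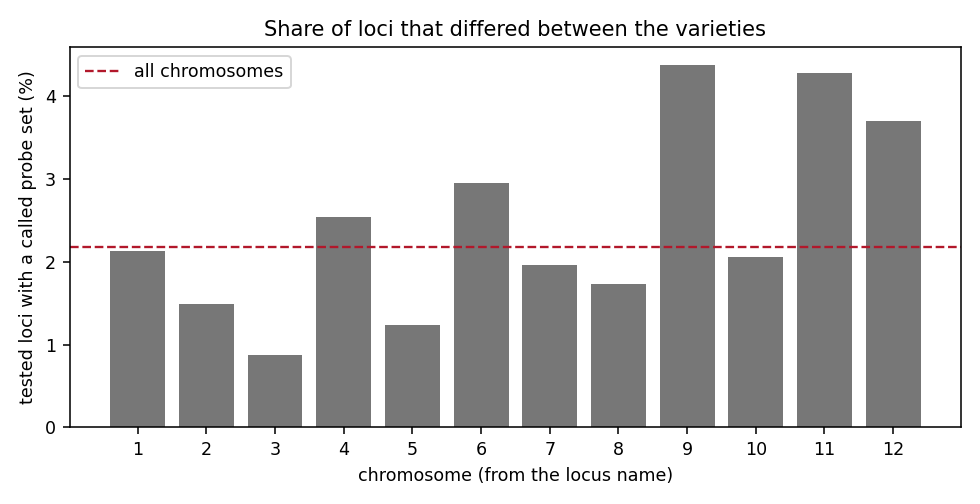
Bars give the percent of tested loci with a called probe set on each chromosome, read from the locus name, and the dashed line the share over all chromosomes, 2.18%. Chromosomes 9, 11 and 12 stand above 3.5% and chromosome 3 below 1%.

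In windows of 20 neighbouring tested loci, 13 held 5 or more called loci; they were picked for their number of calls and are given as a description. On chromosome 4 the window of Os04g0476400 to Os04g0480200 held 6 called loci, all higher in Varadan, and OsNAR2.2 is its last locus. The others there were Os04g0477900 (6.6 log2), Os04g0478000 (7.55 log2), Os04g0479300 (1.6 log2), Os04g0479500 (3.45 log2) and Os04g0479800 (2.90 log2). Os04g0479500 has 2 tested probe sets, and its brighter one was not called and lay within 0.5 log2 of 0. Os04g0479300 and Os04g0479800 were expressed in both varieties, with means of 10.71 and 9.49 log2 in Varadan and 9.12 and 6.59 log2 in Prasanna. On chromosome 12 the window of Os12g0100100 to Os12g0106100 held 6 called loci, all higher in Varadan, among them Os12g0103300 at 13.18 log2 in Varadan and 6.41 log2 in Prasanna. On chromosome 1 the window of Os01g0532200 to Os01g0541000 held 6, all lower, including Os01g0537250 and Os01g0539400. On chromosome 6 the window of Os06g0158600 to Os06g0163200 held 7, 6 of them higher, with Os06g0160001 at 12.49 log2 in Varadan and at background in Prasanna. Neighbours could also differ in direction: on chromosome 9 PRIN2 was 2.23 log2 higher and the adjacent SDH7 lower in Varadan at -2.02 log2.

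The difference between the varieties was not shown to depend on the nitrogen supply. A test of the variety difference without nitrogen against that with nitrogen called 0 of 34316 probe sets (0.0%) by limma, with 1838 at an unadjusted p under 0.05 and the smallest adjusted p at 0.93. As each variety has 1 array without nitrogen, a p that misses the threshold does not show that the differences are alike. Unlike the average over both supplies, this test and the differences with nitrogen below depend on the supply labels. Their sizes therefore change with the Varadan columns exchanged between the deposited tables, and those given are by the log2 table. With supplemented nitrogen alone, fitted with a separate mean for each variety at each supply, 243 probe sets (0.708%) were called, 237 of them among the 601. OsIRT2 differed by 5.70 log2 with nitrogen and OsYSL2 by -8.03 log2, OsNAR2.2 by 5.21 log2, and both probe sets of OsWNK7 by 4.22 and 3.91 log2, each with an adjusted p of 0.024 to 0.041. OsADH1, OsPR1b and RAB16D, at 1.41, 2.42 and 2.45 log2 with nitrogen, did not pass there (adjusted p = 0.13 to 0.24).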

How the data were processed

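Each of the 6 arrays is an Affymetrix rice array hybridised with root RNA. Per the submitters' processing notes, signals came from MAS5, with its version not given in the sources used here. What the authors deposited is a table of log2 signals, used as deposited, and a series matrix of the same signals as linear intensity values. Every array had a trimmed mean of 500 (2% at each end) on the linear scale, which would hide a common shift of most genes. The deposited tables agreed to within 1e-06 log2 for 4 arrays; the columns of the other two, Varadan without nitrogen and Varadan with nitrogen replicate 1, were exchanged, and the log2 table was kept.

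Of 57381 probe sets, 187 controls were left out and 34316 with a mean at or above the 40th percentile were tested. Variety was fitted with limma 3.58.1 (R 4.3.3; lmFit, eBayes with a trend), with nitrogen supply as a covariate, two-sided, and p-values adjusted by Benjamini-Hochberg over all tested probe sets at 0.05. Errors are standard errors of the fit. The fit was run on simulated normal values with planted differences, to check only that their sizes were recovered. That check does not measure false calls in these arrays. Readings below the 40th percentile of their array were not taken as above background; where all 3 of a variety were such, the fold is a bound ("at least") with those readings raised to it. Depth does not apply to arrays; their number limits the precision.

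Gene identifiers are the platform annotation's; names come from the lists or from a table of reference genes and their synonyms (ASM3414082v1), which holds the gene of 30590 probe sets. Of 328 list entries 253 were resolved. The loci named are up to 12 in each direction with the best agreement of probe sets, up to 10 probe sets in each direction with the largest difference among named genes, called list genes, and 6 loci called in both directions; CARA, OsMT-I-2b, OsRBCS3, PRIN2, Pi21 and other uncalled list genes were added after their values were seen. The arrays, lists and genes were chosen with earlier results of these data known. The product descriptions planned for gene families were not used, so families were formed by name. Alternatives covered the other table, filters, scalings, variance models, designs and each array left out.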

Additional observations from a re-analysis of the deposited data

How the results depend on the processing

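Varadan was above Prasanna, or below it, in the same direction for all 90 called probe sets named, under every alternative that tested them. The count of 601 called probe sets (326 higher, 275 lower) stayed within 1.5 times with the series matrix (424), no filter (614), a stricter filter (465), low readings raised (811), quantile normalization (607), median centring (605), a robust variance (604), no nitrogen covariate (443) and without shared-sequence probe sets (491). It was 176 (91 higher, 85 lower) without a variance trend, 394 (215, 179) with 1 mean per variety and supply and 289 (159, 130) on the arrays with nitrogen alone. Leaving out 1 array gave 239 to 820 calls, 126 to 392 of them higher and 71 to 428 lower; the cause was not tested. The count of 401 called loci was 378 on the mean over the probe sets of a locus. With nitrogen alone the 243 calls were 155 with the series matrix and 50 without a variance trend. The 6 called list genes were 2 with the series matrix, 1 without a variance trend, 3 with no nitrogen covariate, with 1 mean per variety and supply and on the arrays with nitrogen, and 1 to 11 with an array left out. The mean over the probe sets of a locus also gave 6 called list genes, and it was not run for single named probe sets. Of the 90 named probe sets, 54 lost their call without a variance trend, 31 on the arrays with nitrogen, 22 with 1 mean per variety and supply and 5 to 43 with an array left out. A replicate block gave 555 calls; only the number 2 stands in the labels, so the block shows no pairing. With 3 arrays a variety and no detection calls, differences at low signal are the least certain.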
